A study of Mus musculus with 64 samples.

Results

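The 10 genes described here make, guide or undo cytosine methylation in DNA. They are Dnmt1, Dnmt3a, Dnmt3b, Dnmt3l, Uhrf1, Tet1, Tet2, Tet3, Tdg and Dppa3. They were chosen by name and not by a rule on measured values, although earlier results of these data were known. All 10 were found among the 23338 genes of the deposited count files. RNA was sequenced from 64 mouse samples of the C57BL/6 strain (C57BL/6 J in the study's methods), for which no transgene, mutation or treatment is named. There were 12 libraries of single eight-cell embryos, collected from 4 litters of natural matings at 2.5 dpc (days post coitum), and 4 libraries of embryonic stem (ES) cell lines. The livers came from 24 fetuses late in gestation and from 24 adults 15 to 20 weeks old, and each stage was divided equally between males and females. The gender of the embryos was assigned by the study from their sex-linked transcripts. Each ES line was derived from an eight-cell embryo and kept in 2i and LIF, which is serum-free medium with inhibitors of MEK and GSK3 plus leukaemia inhibitory factor. The embryo libraries were made by PCR amplification of the cDNA of a few cells, whereas ES lines and livers were prepared with a stranded total RNA kit, so that in comparisons with embryos the stage cannot be told apart from the protocol.

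Maintenance methylation copies the pattern of the old DNA strand to the new one after replication. UHRF1 binds hemimethylated CpG sites and brings in DNMT1, the maintenance methyltransferase. DNMT3A and DNMT3B place methylation on unmodified DNA, and DNMT3L, which has no catalytic activity of its own, stimulates them. The TET dioxygenases oxidise 5-methylcytosine, and TDG, a DNA glycosylase, removes the later oxidation products so that base excision repair can restore cytosine. DPPA3, also known as STELLA or PGC7, is a maternal factor that protects methylation in the zygote and restrains UHRF1. Cells in 2i are known for a hypomethylated genome, the early embryo loses most of its methylation during cleavage, and the fetal liver is a site of blood formation in which dividing erythroid cells are abundant.

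Promoter sequences from RefSeq (GRCm38.p6, which is the build mm10 of the count files) were available for 9 of the 10 genes, in windows of 300 bases that run from 250 before to 50 after a transcription start. The promoters of Uhrf1 and Dnmt1 are printed because these are the maintenance genes. The capitals mark matches on either strand to 4 E2F words, TTTCCCGC, TTTCGCGC, TTTGCCGC and TTTGGCGC. The words can overlap each other on opposite strands. E2F proteins are transcription factors that act on S phase genes.
Uhrf1, chr17:56304063-56304362, plus strand: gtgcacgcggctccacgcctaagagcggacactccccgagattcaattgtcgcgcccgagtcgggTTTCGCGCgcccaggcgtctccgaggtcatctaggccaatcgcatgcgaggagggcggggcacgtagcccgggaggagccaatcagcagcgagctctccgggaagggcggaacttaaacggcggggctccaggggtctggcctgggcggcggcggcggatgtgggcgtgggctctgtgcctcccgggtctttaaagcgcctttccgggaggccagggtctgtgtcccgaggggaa
Dnmt1, chr9:20952574-20952873, minus strand: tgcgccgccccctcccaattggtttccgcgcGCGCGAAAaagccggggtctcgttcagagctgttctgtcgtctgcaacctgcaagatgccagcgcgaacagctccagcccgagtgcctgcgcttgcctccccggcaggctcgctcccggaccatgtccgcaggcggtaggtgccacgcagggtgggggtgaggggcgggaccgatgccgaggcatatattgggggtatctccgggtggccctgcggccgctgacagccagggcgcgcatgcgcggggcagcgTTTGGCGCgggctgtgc
The Uhrf1 window held 1 match and the Dnmt1 window 2, and both windows held 33 CpG sites. Of all 32851 promoter windows, 2.26% held at least 1 of the 4 words, and the median window held 7 CpG sites. Each of the 4 words contains a CpG, and 8.6% of windows held 33 or more CpG sites. The 2.26% is therefore not the share among windows of like CpG content, which was not counted. No other window of the 9 genes held such a word, the second Uhrf1 start and the other Dnmt1 starts included. A match of letters is a description and was not tested as a binding site, nor was any part of it in the levels. The Tet2 promoter held 57 CpG sites, a number that 0.2% of all windows reached, and the 3 starts of Dnmt3l held 3 to 6.

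For Tdg a copy elsewhere in the genome bears on the count. In GENCODE M21 (GRCm38), Tdg lies at chr10:82629828-82650799 on the plus strand, and the processed pseudogene Tdg-ps at chr15:82516311-82519278. The pseudogene matched 98.65% of the 1263 coding bases of Tdg, without gaps. The first 90 coding bases of Tdg and the aligned stretch of Tdg-ps are printed because they show how few bases separate the copies, and capitals mark the bases that differ.
Tdg: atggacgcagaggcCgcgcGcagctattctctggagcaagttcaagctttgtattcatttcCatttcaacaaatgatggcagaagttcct
Tdg-ps: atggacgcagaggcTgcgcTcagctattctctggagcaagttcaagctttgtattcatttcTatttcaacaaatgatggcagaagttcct
Of the windows of 50 bases along the longest coding transcript of each gene, 66.32% of those of Tdg also occurred in a transcript of another gene. The share was 18.91% for Uhrf1, 17.73% for Dppa3 (shared with Dppa3-ps) and 11.5% for Dnmt3b (shared with Dnmt3c). It was 0.01% for Tet1 and 0 for the other members. Counts of Tdg, and in smaller part those of Uhrf1, Dppa3 and Dnmt3b, are therefore uncertain. Tdg also shares 367 exonic bases with Glt8d2 on the opposite strand.

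Levels are given as CPM, the reads of a gene scaled to a common number of reads on genes, with TMM factors over all 64 libraries. Reads on genes numbered 9857929 to 10386931 in ES lines, 4659656 to 7725432 in embryos, 5145371 to 8499603 in livers of fetuses and 1567583 to 4757610 in those of adults, and 3 reads correspond to between 0.289 and 1.914 CPM before scaling. Fetal liver 14, a female, stood apart from the other fetal livers (median Spearman correlation 0.9615, against 0.98 or above), and embryos 1 and 3, both male, had the lowest correlations among the embryos (0.8782 and 0.883). Marker genes followed the labels: 7 pluripotency markers summed to between 2279.7 and 2758.2 CPM in ES lines and to at most 8.3 CPM in livers, and 8 hepatocyte markers to at least 20712 CPM in fetal and 48563 CPM in adult livers. In embryos 5 of the 8 hepatocyte markers had no read.

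**Figure D1:**
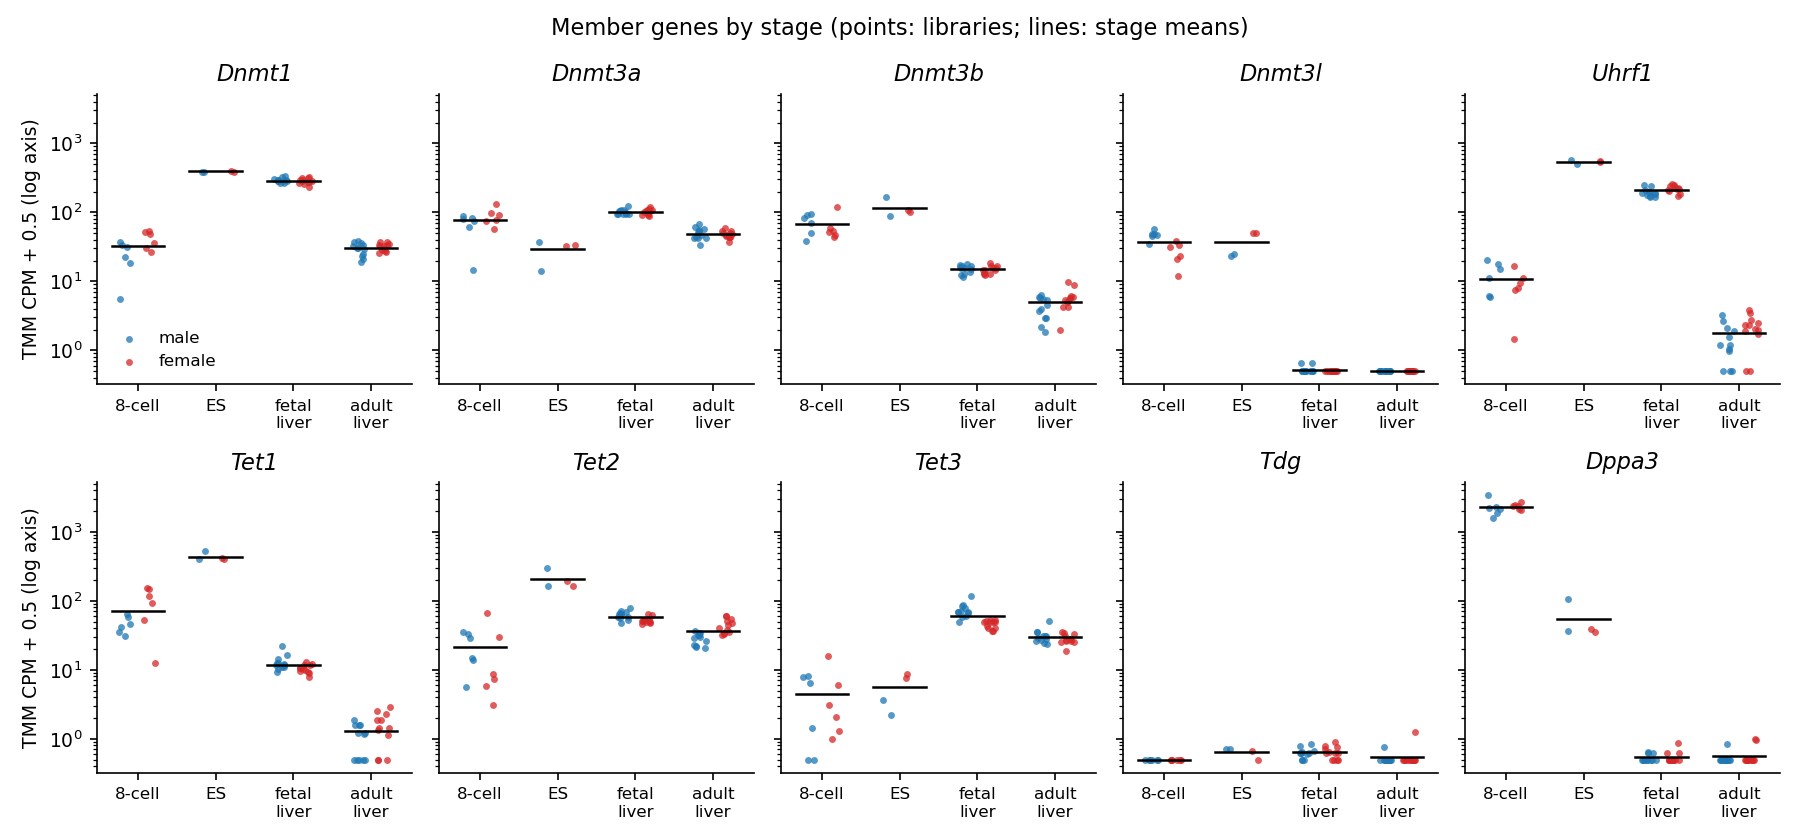
TMM CPM plus 0.5 on a log axis for each of the 10 genes in every library, by stage, with males in blue, females in red and a line at the mean of each stage. Uhrf1 and Dnmt1 peak in ES lines and fetal liver, Tet3 is highest in the livers, and Dppa3 is above 1570 CPM in every embryo.

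The maintenance pair had its highest levels in ES lines and fetal livers. Dnmt1 stood at 388.1 and 389.5 CPM in the male lines and at 385.3 and 398.1 CPM in the female lines. It ranged from 232.7 through a median of 286.3 to 338.9 CPM in fetal livers, from 5.11 through 32.1 to 53.8 CPM in embryos, and from 18.4 through 30.9 to 38.4 CPM in adult livers. Embryos and adult livers thus overlapped, while ES lines, fetal livers and the other stages did not. Uhrf1 ran from 494.5 to 573.7 CPM in ES lines, from 166.5 to 253.7 CPM in fetal livers, from 0.937 to 19.7 CPM in embryos and from 0 to 3.40 CPM in adult livers. Of the 24 adult livers 19 had at least 1 Uhrf1 read, with at most 7 reads in a library. The lowest embryo, with 6 reads, lay within the adult range.

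The de novo enzymes were ordered differently from each other. Dnmt3a was highest in fetal livers (87.5 to 123.9 CPM, median 101.8), followed by embryos (14.3 to 133.0 CPM, median 77.1), adult livers (33.0 to 67.0 CPM, median 47.1) and ES lines (13.8 to 36.8 CPM), and neighbouring stages in this order overlapped. Dnmt3b was highest in ES lines (86.4 to 164.8 CPM) and embryos (38.4 to 120.7 CPM, median 55.9), which overlapped. It was lower in fetal livers (11.1 to 17.7 CPM) and lowest in adult livers (1.35 to 9.22 CPM), and those ranges were apart. Dnmt3l was read in every embryo (11.6 to 56.0 CPM) and in every ES line (22.6 to 49.7 CPM). In the livers it was represented by 2 reads in 2 fetal males, a pooled level of 0.0123 CPM (exact Poisson 95% interval 0.00149 to 0.0446), and by no read in the 24 adult livers, which allows up to 0.0452 CPM at 3 reads over the group. Such intervals cover counting error only.

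Among the TET genes, Tet1 and Tet2 peaked in ES lines and Tet3 in livers. Tet1 lay between 400.5 and 522.1 CPM in ES lines, between 11.9 and 152.6 CPM in embryos (median 54.7), between 7.37 and 21.6 CPM in fetal livers and between 0 and 2.43 CPM in adult livers, with a read in 16 of 24 adult livers. Tet2 lay between 164.2 and 300.6 CPM in ES lines, 45.5 and 79.3 CPM in fetal livers, 19.9 and 60.4 CPM in adult livers, and 2.56 and 67.0 CPM in embryos. The ES lines stood above every other library for both genes. Tet3 was highest in fetal livers, with 35.7 to 118.6 CPM there, 18.1 to 51.2 CPM in adult livers, 1.75 to 8.25 CPM in ES lines and 0 to 15.3 CPM in embryos, of which 2 had no read. The livers did not overlap with ES lines for Tet3, whereas the ranges of ES lines and embryos overlapped.

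Dppa3 was highest in embryos, where it ranged from 1570.4 through a median of 2269 to 3390 CPM. It stood at 104.6 and 36.3 CPM in the male ES lines and at 38.8 and 34.5 CPM in the female lines. Livers held 8 Dppa3 reads over the 24 fetal and 3 over the 24 adult libraries, so that the level pooled by library totals, without TMM factors, was 1446-fold higher in ES lines than in fetal livers (95% counting interval 733 to 3352) and 1576-fold higher than in adult livers (539 to 7646). Tdg had 8 reads over the 4 ES lines, 24 over the fetal livers, 2 over the adult livers and none in embryos. Its pooled ES level was 1.33 times that of fetal livers with a counting interval of 0.518 to 3.07, so that no order of the stages can be given for Tdg.

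The genes were compared with each other only after division by exon length, and only among ES lines and livers, which share a library kit. In ES lines Uhrf1 had the highest level per kilobase of exon, 146.7 ± 9.13 CPM per kb (SD, n = 4), followed by Dppa3 (64.3 ± 40.9) and Dnmt1 (61.9 ± 0.877), whose ranges overlapped. Tet1 (30.3 ± 4.04), Dnmt3b (26.5 ± 8.00) and Tet2 (22.4 ± 7.01) overlapped with each other, and Dnmt3l (13.7 ± 5.66), Dnmt3a (2.90 ± 1.03) and Tet3 (0.434 ± 0.267) followed. In fetal livers the maintenance genes ranked highest, with 56.5 ± 7.62 CPM per kb for Uhrf1 and 45.7 ± 3.71 for Dnmt1 (SD, n = 24), and Dnmt3a next at 10.2 ± 0.90 CPM per kb. The ranges of Uhrf1 and Dnmt1 overlapped there. In adult livers Dnmt3a (4.88 ± 0.792 CPM per kb) and Dnmt1 (4.78 ± 0.848) were within each other's spread, Tet2 (3.89 ± 1.25) overlapped with both, and Uhrf1 had fallen to 0.355 ± 0.269.

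Differences between stages were tested on the counts by the two-sided quasi-likelihood test of edgeR, with gender as a covariate. A gene was called at a Benjamini-Hochberg adjusted p under 0.1 over all genes tested and an absolute log2 difference above 0.5. The labels list the samples as separate embryos, lines or animals without naming litters, and p-values measure the spread between these samples. In bulk samples fewer cells of a type and less RNA per cell cannot be told apart.

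Adult liver had less RNA of every member that could be tested against fetal liver. The 7 tested members were all called lower, where 67.0% of the 12875 genes tested were called, 31.7% higher and 35.3% lower, and their median log2 difference was -1.62 against -0.05 over all genes. Dnmt3l, Tdg and Dppa3 did not pass the filter on low counts in the livers. Uhrf1 (at most 7 reads in an adult library) and Tet1 (at most 5) were under that filter among adult livers alone. Both entered through the fetal livers, where they are higher, so the count of 7 and the median partly reflect the filter. Uhrf1 fell by 7.15 ± 0.118 on the log2 scale (SE, edgeR adjusted p = 2.71e-48), a difference of 142-fold. Tet1 fell by 3.64 ± 0.190 (adjusted p = 5.58e-25) and Dnmt1 fell by 3.15 ± 0.0568 (adjusted p = 3.61e-47). Dnmt3b fell by 1.62, Dnmt3a fell by 0.95, Tet3 fell by 0.91 and Tet2 fell by 0.59, so that Tet2 lay closest to the threshold on the fold. The shift of the median gene depended on scaling: with library totals alone it was -0.61, and 74.6% of the calls were then lower, against 52.7% with TMM, with all 7 members still called lower.

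Other genes moved over the same comparison. All 12 proliferation markers were called lower in adult liver, with a median log2 difference of -5.31, and their summed level ran from 101.8 to 178.0 CPM in adult against 4891 to 7553 CPM in fetal livers. All 8 erythroid markers were also called lower (summed 19.3 to 250.9 against 4254 to 6377 CPM), as were 4 of 4 leukocyte markers tested (65.0 to 200.4 against 629.4 to 1363.6 CPM), and 3 of 4 fibroblast markers tested (92.3 to 303.4 against 453.7 to 1317.7 CPM), while 8 of 8 hepatocyte markers were called higher. No marker of these 5 lists was at 0 in either stage. Over all genes tested 35.3% were called lower and 31.7% higher. Among adult livers alone 9 of 12 proliferation, 1 of 8 erythroid and 2 of 5 leukocyte markers passed the count filter. The other tested markers of these lists entered through the fetal livers, where they are higher, so the counts partly reflect the filter. The part of the cell mixture in the levels of the methylation genes was not tested.

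**Figure D2:**
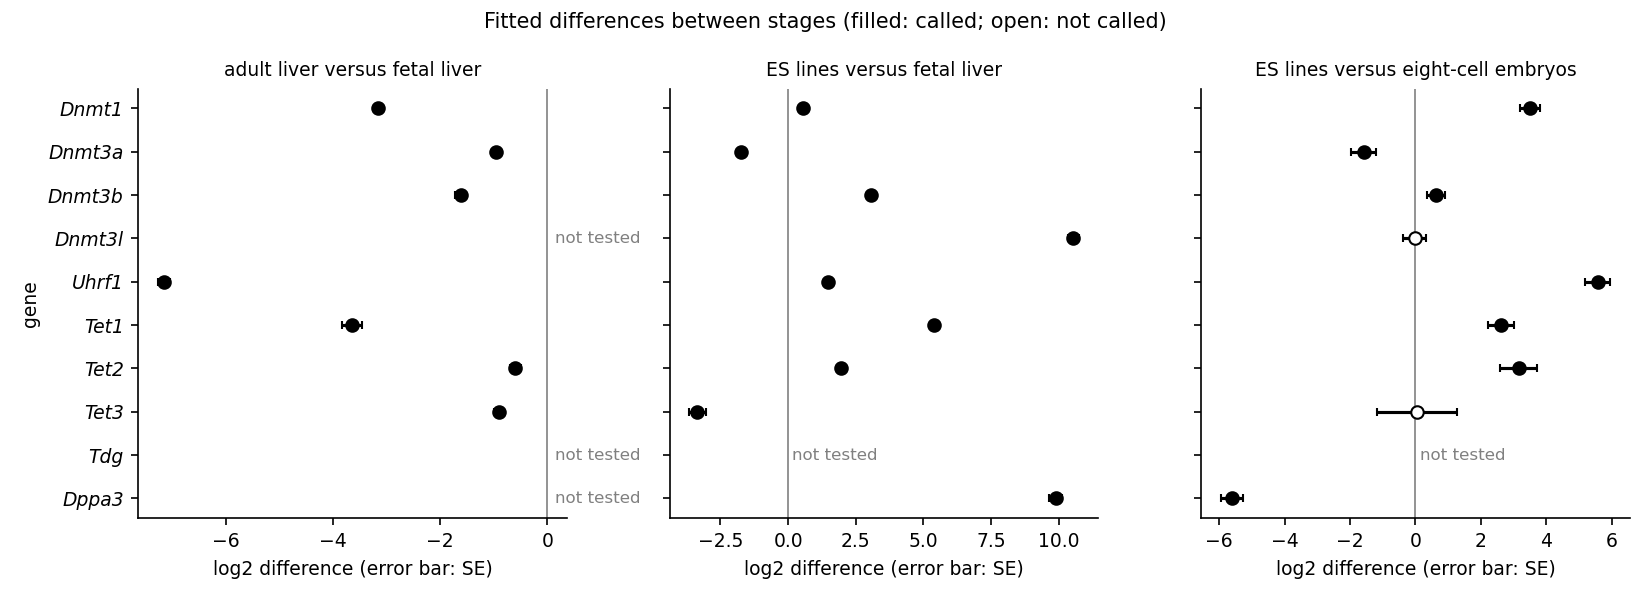
Fitted log2 differences with their standard errors for the 10 genes in 3 comparisons of stages. Filled points were called, open points were not, and genes under the count filter are marked as not tested. Points to the left are lower in adult liver (left panel) or in ES lines (other panels), and all 7 points of the left panel lie below 0.

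ES lines and fetal livers differed for all 9 members tested, 7 called higher and 2 called lower in ES lines, where 76.7% of 14333 genes were called, 36.2% higher and 40.5% lower. Tet1 was 41.7-fold higher in ES lines (log2 5.38 ± 0.0936, adjusted p = 2.88e-30), Dnmt3b 8.46-fold (3.08 ± 0.0899), Tet2 3.84-fold (1.94 ± 0.0879) and Uhrf1 2.79-fold (1.48 ± 0.0796). Dnmt3l and Dppa3 were called as well, and their fold changes rest on the few liver reads given above. Both were under the count filter among fetal livers alone. They entered through the ES lines, where they are higher, so the counts of 9 and 7 partly reflect the filter. For Dnmt3l the ratio of pooled reads by library totals, without TMM factors, was 3846 with a counting interval of 1063 to 31782. The fitted folds with TMM factors were 1486 for Dnmt3l and 941 for Dppa3, and depend on the prior count that the fit adds. Dnmt1 was 1.45-fold higher (log2 0.54 ± 0.0600), close to the fold threshold, and was below that threshold without ES line 3 (0.47), without ES line 4 (0.49) and with DESeq2 (0.49). The members lower in ES lines were Tet3, by 10.2-fold (log2 -3.35 ± 0.303, adjusted p = 2.74e-11), and Dnmt3a, by 3.29-fold (log2 -1.72 ± 0.135, adjusted p = 3.21e-13).

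Against the embryos from which such lines derive, ES lines had more RNA of the maintenance genes and of Tet1 and Tet2, and less of Dppa3 and Dnmt3a. Of 9 members tested 7 were called, 5 higher and 2 lower in ES lines, where 65.0% of 12478 genes were called, 37.6% higher and 27.4% lower. Uhrf1 was higher by 5.57 ± 0.386 on the log2 scale (edgeR adjusted p = 2.72e-09), Dnmt1 by 3.50 ± 0.302, Tet2 by 3.16 ± 0.573 (with no adjusted p from DESeq2) and Tet1 by 2.62 ± 0.390. Dppa3 fell by 5.61 ± 0.339 (adjusted p = 5.53e-10) and Dnmt3a fell by 1.58 ± 0.381 (adjusted p = 0.00185). In an exact permutation test of log2(CPM + 0.5) over the 1820 splits of these samples, Dnmt1, Uhrf1, Tet1, Tet2 and Dppa3 each gave the smallest p such a design allows, 0.000549, and Dnmt3a gave 0.0104. Dnmt3b was called at 0.62 ± 0.274 (adjusted p = 0.0615), and the call was lost without ES line 1 (0.44, adjusted p = 0.254) and without ES line 4 (0.62, adjusted p = 0.114). Dnmt3l (-0.02 ± 0.356) and Tet3 (0.05 ± 1.22) were not called. The median gene was higher in ES lines by 0.44 with TMM and by 0.83 with library totals, and the 4 large increases and the fall of Dppa3 exceeded either shift. Embryos also held oocyte transcripts, whose 5 markers summed to between 66.6 and 156.8 CPM against at most 16.3 CPM in ES lines. All 5 were called lower in the lines. Among ES lines alone 1 of the 5 passed the count filter, so this count partly reflects the filter.

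Embryo libraries varied widely among themselves for several members. The highest embryo exceeded the lowest 26.2-fold for Tet2, 20.97-fold for Uhrf1, 12.8-fold for Tet1 and 10.5-fold for Dnmt1, against 2.16-fold for Dppa3. Among the ES lines the same ratio was 1.03-fold for Dnmt1, 1.16-fold for Uhrf1 and 4.72-fold for Tet3. The ratios cover 12 amplified embryo libraries and 4 ES lines, so spread between embryos cannot be told apart from that of the protocol. The lowest embryo held 19 reads of Tet2 and 6 of Uhrf1, against 10752 of Dppa3. Embryo 1, which stood apart in its correlations, held 35 reads of Dnmt1 and 98 of Dnmt3a, the lowest number for each among the 12 embryos. Without embryos 1 and 3 the comparison of ES lines with embryos still called 7 members.

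The partners of these enzymes were read from 4 lists named by function. The methyl-CpG readers and recruiters (13 genes, such as Mbd1 and Mbd2, the remodeller Hells and the imprint factors Zfp57 and Trim28) were all tested in adult against fetal liver, with 3 called higher and 7 lower and a median log2 difference of -0.66, where 67.0% of all genes tested were called. Hells, a chromatin remodeller needed for normal methylation, fell by 4.34 ± 0.102, and Mbd4, a glycosylase that binds methylated CpG, fell by 1.78 ± 0.0763, whereas Mbd1 was higher by 0.95 ± 0.162. The Mbd1 median was 109.0 CPM in adult and 38.4 CPM in fetal males, and 41.0 CPM in adult and 42.9 CPM in fetal females, and the interaction of gender and stage was called (1.47 ± 0.235, adjusted p = 5.72e-06). In ES lines against fetal liver 7 of 13 were called higher and 5 lower, where 76.7% of all genes were called, with Zfp57 higher by 6.16 ± 0.0782, Trim28 by 2.82 ± 0.0455 while Mbd2 differed by -3.48 ± 0.0877.
Of 18 genes of base excision repair and deamination, 15 were tested in the livers, with 4 called higher and 7 lower in adults, against the same 67.0% of all genes. Neil3, a glycosylase of dividing cells, fell by 6.94 ± 0.125 and Ung, the uracil glycosylase, fell by 1.27 ± 0.13, while Neil1 was higher by 1.19 ± 0.0916. In ES lines against fetal liver 11 of 17 were called higher and 4 lower, against the same 76.7%, and Ung was higher by 2.99 ± 0.0701.
The 12 enzymes of methyl donors and alpha-ketoglutarate, the cofactor of TET proteins, had 5 called higher and 2 lower in adult liver, against 67.0% of all genes called, and their summed level rose to between 11528 and 20448 CPM from 2219.5 to 2858.5 CPM. Bhmt, Gnmt, Mat1a and Ahcy, enzymes of the hepatic methionine cycle, were higher by 3.93, 3.90, 2.91 and 2.76 on the log2 scale, with adjusted p-values from 3.39e-49 to 2.67e-36. Adult liver thus had more RNA of these enzymes and less of the 7 members tested.

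The 4 ES lines allow each member to be read line by line. Male and female lines did not overlap for 2 of the 9 members tested, Dnmt3l and Tet3, where 57.2% of 12678 genes tested showed such separation. Dnmt3l stood at 24.3 and 22.6 CPM in the male lines and at 49.7 and 49.5 CPM in the female lines, from 336, 311, 646 and 630 reads. Tet3 stood at 3.18 and 1.75 CPM in the male and at 7.23 and 8.25 CPM in the female lines, from 44, 24, 94 and 105 reads. These were the 2 members called, at log2 (male minus female) of -1.07 ± 0.107 for Dnmt3l (edgeR adjusted p = 0.0115) and -1.64 ± 0.335 for Tet3 (adjusted p = 0.0541), where 9.50% of all genes tested were called. Both calls were lost without female line 3 or without female line 4, settings in which edgeR called no gene of 13120 and 13108 tested while 1290 and 1163 genes had an unadjusted p under 0.05. The fitted differences of both genes lay between -1.73 and -1.07 there, and the lone female line was assumed to vary like the male lines. An exact permutation test of 2 against 2 lines cannot give a p below 0.33.

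Single lines set the differences of other members. Male line 1 had 104.6 CPM of Dppa3, against 34.5 to 38.8 CPM in the other lines, and 164.8 CPM of Dnmt3b, against 86.4 to 108.4 CPM. Male line 2 had 13.8 CPM of Dnmt3a, against 31.5 to 36.8 CPM, with 522.1 CPM of Tet1 (others 400.5 to 418.5) and 300.6 CPM of Tet2 (others 164.2 to 192.9). Line 2 thus had the lowest Dnmt3a, Dnmt3l and Tet3 and the highest Tet1, Tet2 and Uhrf1 of the 4 lines. The sign of the male to female difference of Dnmt3a, Dnmt3b, Tet2 and Dppa3 depended on which male line was left out. Without line 1, Dnmt3a (-1.23) and Tet2 (0.75) were called in addition to Dnmt3l and Tet3, and without line 2, Dnmt3b (0.68) and Dppa3 (1.52) were, with the lone male line assumed to vary like the female lines. Dnmt1 varied by 1.42% (coefficient of variation, n = 4).

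**Figure D3:**
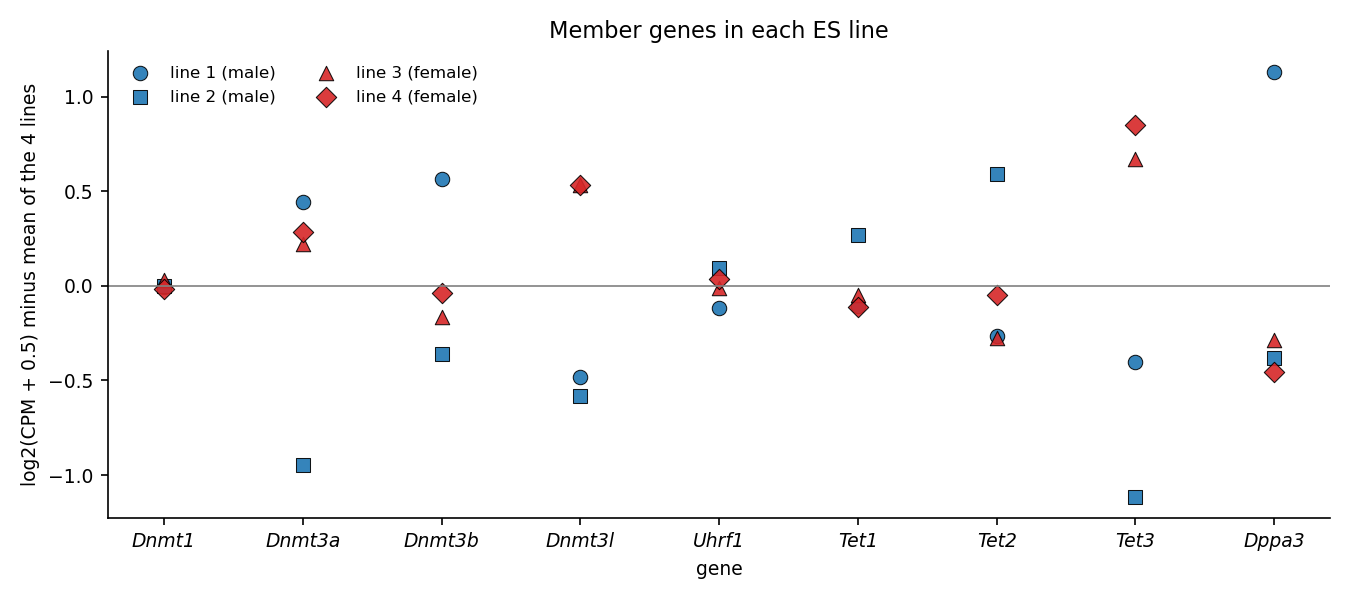
Deviation of log2(CPM + 0.5) from the mean of the 4 ES lines for the 9 members above 1 CPM on average, with male lines in blue (circle, square) and female lines in red (triangle, diamond). The genders separate for Dnmt3l and Tet3, while lines 1 and 2 lie on opposite sides of the female lines for Dnmt3a and Dnmt3b.

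Regulators of these genes also differed between the lines. Of 7 listed genes 6 were tested and 3 were called, all higher in female lines, where 9.50% of all genes tested were called. Dusp9, an X-linked phosphatase that dampens MAP kinase signalling, had 6.29 and 13.8 CPM in male against 66.5 and 72.2 CPM in female lines (log2 -2.79 ± 0.332, edgeR adjusted p = 0.0177). Prdm14, a repressor of the de novo methyltransferase genes in pluripotent cells, had 57.9 and 67.1 CPM against 110.7 and 116.7 CPM (log2 -0.86 ± 0.104, adjusted p = 0.0187). Ogt, an X-linked transferase that binds TET proteins, had 201.5 and 234.8 CPM against 363.6 and 391.5 CPM (log2 -0.79 ± 0.0961, adjusted p = 0.0187). Nanog, which was not called, had 366.7 to 383.2 CPM against 419.8 to 421.9 CPM. Of the base excision repair list the glycosylase gene Neil2 was called higher in male lines (9.46 and 11.3 against 4.69 and 3.06 CPM). The calls of Dusp9, Prdm14, Ogt and Neil2, like those of Dnmt3l and Tet3, were lost without female line 3 or without female line 4. No proliferation or pluripotency marker was called between male and female lines. The share of counted reads that fell outside genes was 29.3% and 31.3% in the male and 26.7% and 28.2% in the female lines. These ranges did not overlap, so gender and this share cannot be told apart among the 4 lines. With the share as a covariate neither Dnmt3l (log2 -0.97, edgeR adjusted p = 0.103) nor Tet3 (-1.14, adjusted p = 0.360) was called. Dppa3, which was high in male line 1 alone, was called (2.37, adjusted p = 0.0736).

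Between male and female eight-cell embryos no member was called among the 9 tested, where 0.264% of 9087 genes were called. DESeq2 called none of them either, and by edgeR 2 had an unadjusted p under 0.05. Dnmt3l ranged from 34.1 through 47.0 to 56.0 CPM in male embryos and from 11.6 through 26.7 to 38.1 CPM in female embryos, and the ranges overlapped (log2 0.82 ± 0.322, unadjusted p = 0.0189, edgeR adjusted p = 1.00). Tet1 ranged from 30.8 through 43.7 to 63.5 CPM in males and from 11.9 through 105.1 to 152.6 CPM in females (log2 -1.07 ± 0.413, unadjusted p = 0.0179). Dnmt3l thus lay higher in males among embryos and higher in females among ES lines. The interaction of gender and stage over embryos and lines, added after the values were seen, was -1.92 ± 0.531 for Dnmt3l with an unadjusted p of 0.00239, and did not pass the adjustment over all genes (edgeR adjusted p = 1.00, DESeq2 0.288). No member was called in it, where 0.0296% of 13511 genes were.

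In fetal liver 1 of 7 members tested, Tet3, was called higher in males, where 4.64% of 12930 genes were called. Tet3 ranged from 49.1 through 68.7 to 118.6 CPM in male and from 35.7 through 48.6 to 52.8 CPM in female fetal livers, which overlapped slightly, and the log2 difference was 0.72 ± 0.107 (edgeR adjusted p = 2.09e-05). Tet2 (0.30 ± 0.0662, adjusted p = 0.00115) and Tet1 (0.35 ± 0.116, adjusted p = 0.0219) passed the adjusted p and not the fold threshold. Dnmt1, Dnmt3a, Dnmt3b and Uhrf1 differed by between -0.13 and 0.07 on the log2 scale and were not called. No marker of proliferation, erythroid cells, hepatocytes or leukocytes was called between the genders, and 1 of 4 fibroblast markers tested, Col1a1, was higher in males.

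Male and female fetal libraries also differed in composition. The share of counted reads outside genes ran from 39.9% through 41.8% to 49.0% in males and from 34.1% through 35.6% to 38.1% in females, without overlap, so that gender and this share cannot be told apart in fetal liver. With the share as a covariate Tet3 differed by 0.13 ± 0.176 (edgeR adjusted p = 0.987), and Tet1 and Tet2 changed sign (-0.37 and -0.10). Within the 12 male fetal livers log2 Tet3 rose with the share (Pearson r = 0.788, permutation p = 0.00428, adjusted over 6 relations 0.0171; Spearman rho = 0.664, permutation p = 0.0222, adjusted 0.133), and r was 0.605 without the 2 livers farthest from the median share. Among the 12 females r was 0.0363 (permutation p = 0.912). Tet1 and Tet2 had r of 0.801 and 0.699 in males and of 0.303 and 0.639 in females. The Tet2 value in females fell to 0.241 and the Tet1 value to -0.158 without the 2 farthest livers. No Spearman correlation among the 6 relations passed the adjustment. Male liver 11, which had the highest share, also had the highest level of all 3 TET genes, and without it Tet3 was still called (0.63 ± 0.0846, adjusted p = 3.46e-06).

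**Figure D4:**
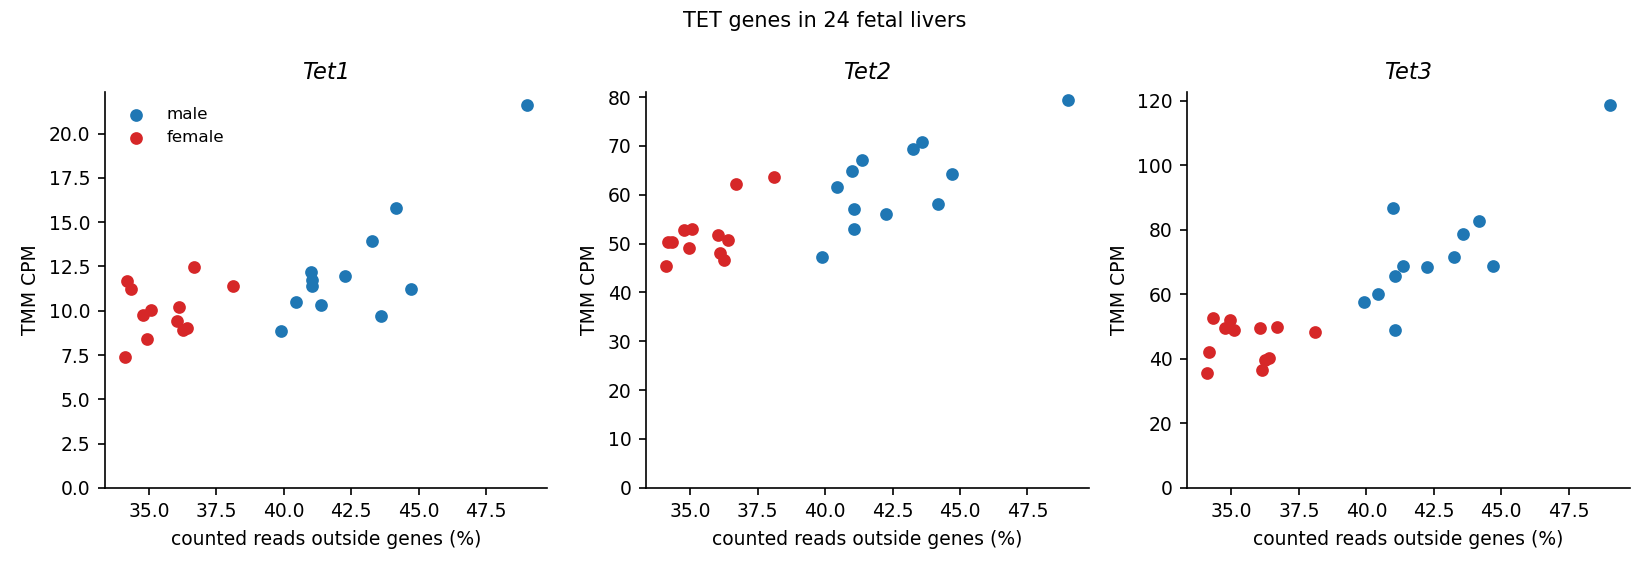
TMM CPM of Tet1, Tet2 and Tet3 in the 24 fetal livers against the share of counted reads outside genes, in percent, with 12 males in blue and 12 females in red. Males lie at 39.9% and above and females at 38.1% and below, and the male liver at 49.0% has the highest level in each panel.

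In adult liver the difference of Tet2 ran the other way. Tet2 ranged from 19.9 through 29.0 to 36.0 CPM in male and from 31.3 through 41.9 to 60.4 CPM in female adult livers, with overlap between 31.3 and 36.0 CPM, and was called higher in females (log2 -0.67 ± 0.126, edgeR adjusted p = 0.000161). Dnmt3b was also called higher in females, from 1.35 through 3.73 to 5.75 CPM against 1.47 through 5.07 to 9.22 CPM (log2 -0.53 ± 0.229, adjusted p = 0.0856), and the call was lost without the expression filter (-0.50, adjusted p = 0.140). These were 2 of 5 members tested, where 9.49% of 10372 genes were called. Dnmt1, Dnmt3a and Tet3 differed by between -0.12 and 0.11 and were not called, and Uhrf1 and Tet1 were under the count filter. The share of reads outside genes overlapped between adult males (28.0% to 35.2%) and females (25.7% to 36.6%), and with it as a covariate Tet2 stayed at -0.68 (edgeR adjusted p = 6.48e-06) and Dnmt3b at -0.52 (adjusted p = 0.0997). Alignments that were not unique numbered 2156564 to 6283236 in adult males and 1504277 to 2648510 in adult females. Reads on genes numbered 1608848 to 4757610 in these males and 1567583 to 3043818 in these females. The part of this difference between the libraries in the adult gender calls was not tested. Both leukocyte markers tested were called lower in males, with a median log2 difference of -0.61, and summed to 65.0 to 116.8 CPM in males and 94.0 to 200.4 CPM in females over the whole list of 5. The 8 erythroid markers summed to 193.7 to 250.9 CPM in males and 19.3 to 58.4 CPM in females, without overlap. Only 1 was tested, the X-linked haem synthesis gene Alas2, and it was called higher in males (2.79, edgeR adjusted p = 4.67e-18). The other markers were under the count filter. Of these, 2 (Gata1 and Rhag) had no read in males, while each had reads in females. The sum therefore need not reflect the whole list. Of 9 proliferation markers tested 1 was called higher and 2 lower in males. The part of these genes in the Tet2 value was not tested.

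The change of the male to female difference from fetal to adult liver was tested as an interaction over the 48 livers. Of 7 members 4 were called, all with a lower male to female ratio in adults, where 13.7% of 13026 genes were called: Tet1 (log2 -1.19 ± 0.477, edgeR adjusted p = 0.0559), Tet2 (-0.92 ± 0.138, adjusted p = 9.19e-07), Tet3 (-0.57 ± 0.166, adjusted p = 0.00851) and Dnmt3b (-0.56 ± 0.219, adjusted p = 0.0491). With the share of reads outside genes as a covariate only Tet2 was called among them (-0.56 ± 0.172, adjusted p = 0.0477), and without male fetal liver 11 Tet3 was below the fold threshold (-0.49, adjusted p = 0.0122). Tet1 held 18 reads over the adult males and 26 over the adult females, and was under the count filter among adult livers alone. It entered the interaction through the fetal livers, so its value gives no reliable adult gender ratio. The genders were compared in both livers with the same samples as above, so the interaction adds no further animals.

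**Figure D5:**
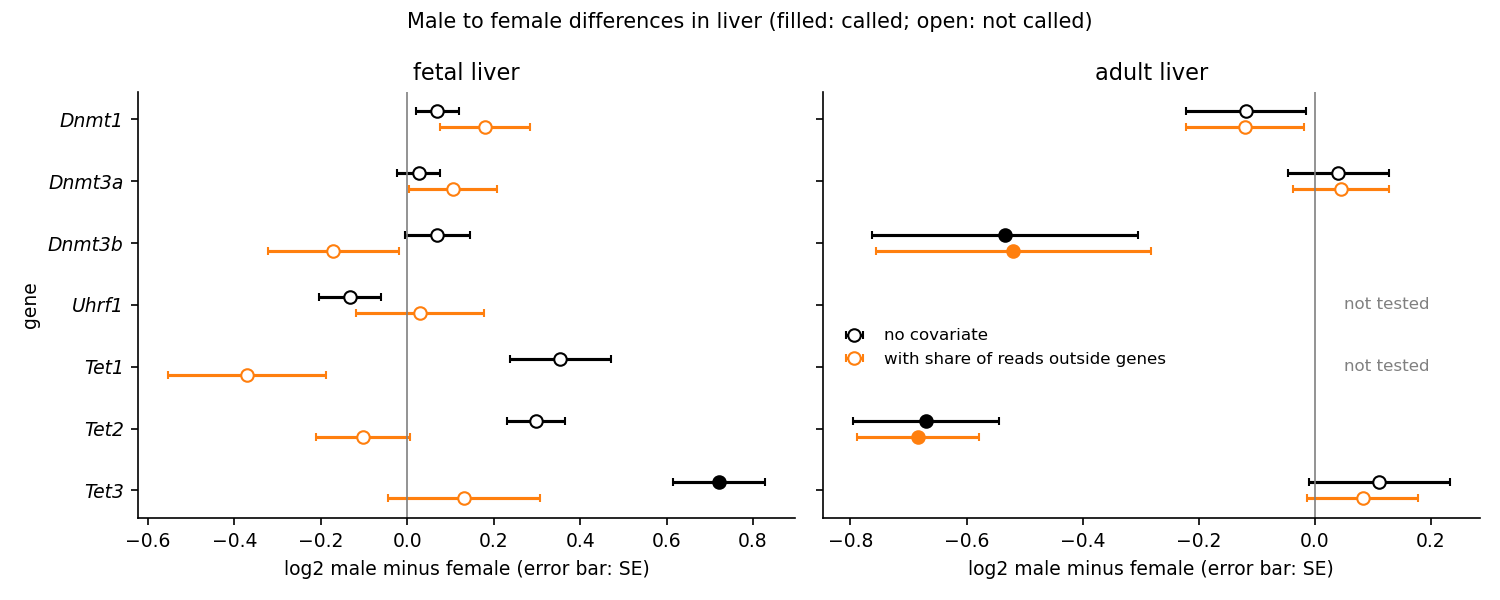
Log2 difference of male minus female with standard errors for 7 members in fetal liver (left) and adult liver (right), without a covariate in black and with the share of reads outside genes in orange. Filled points were called and open points were not. Tet3 in fetal liver moves from 0.72 to 0.13, whereas Tet2 in adult liver stays near -0.67.

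The partner lists were also read between the genders in liver. In fetal liver 1 of 13 methyl-CpG readers, the X-linked Zbtb33, was called higher in males (0.78 ± 0.0982, edgeR adjusted p = 1.73e-06). No gene of the repair, donor or regulator lists was called, where 4.64% of all genes were. With the share of reads outside genes as a covariate 9 genes were called in fetal liver, and the lists were not read in that fit. In adult liver 1 of 11 readers, 2 of 11 repair genes, 2 of 12 donor enzymes and 0 of 3 regulators tested were called by edgeR, where 9.49% of all genes were. Mbd1 was higher in males (1.33 ± 0.238, adjusted p = 0.000192), where male livers ranged from 37.0 through 109.0 to 204.3 CPM and female livers from 33.9 through 41.0 to 64.8 CPM. Mat1a, which makes S-adenosylmethionine in liver, was called higher in females (-0.73 ± 0.0824, adjusted p = 2.79e-08), with 2271 to 4008 CPM in males and 3856 to 6223 CPM in females. Idh2, which produces alpha-ketoglutarate in mitochondria, was called higher in females as well (-0.65 ± 0.0851, adjusted p = 5.55e-07). Polb and Gadd45g were called higher in males, by 0.51 and 1.16.

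The genes whose log2(CPM + 0.5) followed each member most closely over the 64 samples were mostly set by differences between stages, and are given as a description among 13983 genes whose mean reached 1 CPM. Uhrf1 was nearest to Lmnb1, Smc2 and Ncapg (Pearson r 0.963 to 0.964), the last 2 being condensin subunits. Dnmt3b and Tet1 shared G3bp1 among their 3 nearest genes, next to Mtf2 and Sall4 for Dnmt3b and to Msh6 and Fancm for Tet1 (r 0.952 to 0.961). Dppa3 was nearest to Obox6, Sox15 and Fbxo15 (r 0.994 to 0.995), and the nearest gene of Dnmt3l was Dppa5a (r = 0.992). Dnmt1 followed Bex2, Bex4 and Arxes1 (r 0.962 to 0.966), and Tet3 followed Hipk2, Akap13 and Serinc5 (r 0.913 to 0.922). Dnmt3a and Tet2 had looser neighbours, with highest r of 0.858 each, and for Tdg none exceeded 0.566.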

How the data were processed

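The authors deposited raw counts, the whole number of reads per gene in each of 64 libraries, with no normalization. Per the labels and the study's methods, reads were aligned to mm10 with TopHat2 2.0.4 and Bowtie2 2.1.0 (SAMtools 0.1.18), duplicates were removed with Picard and reads were assigned to genes with HTSeq. The strand setting and the read length are not given in the sources used here. Groups follow the labels for stage and gender. The study read the gender of embryos from their transcripts and that of ES lines and fetuses from a PCR for Sry.

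Counts of the 23338 genes were fitted with edgeR 4.0.16 in R 4.3.3 (filterByExpr, TMM, robust quasi-likelihood F test), over all genes, in the samples of each comparison. DESeq2 1.42.0, other scalings, filters, covariates and left-out libraries were alternatives. The fits without fetal livers 11 or 14 or embryos 1 and 3, the interaction over embryos and ES lines, and the correlations of TET genes were chosen after seeing the data. The scripts were tested on simulated data. Reads outside genes (HTSeq's class for reads on no gene) stayed out of library sizes. No libraries were duplicates. Exon lengths come from GENCODE M21, promoter windows from RefSeq. Summaries used Python 3.11.15 with scipy 1.17.1. Correlations used 100000 permutations. Named were the 10 members, genes of the lists, and the 3 genes most like each member. A result of 1 list gene is not reported here. The members and lists were chosen with earlier results of these data known.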

Additional observations from a re-analysis of the deposited data

Results flagged for a closer look

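Some members had 1 library that stood apart from its group, by the gap to its neighbour over the range of the group. This test was made in 27 groups of 4 or 6 samples and chance gives it in about 1 of 20. Among the ES lines they were Dppa3 in male line 1 (104.6 CPM) and Tet1 in male line 2 (522.1 CPM). Among female embryos they were Dnmt3b (120.7 CPM in 1 embryo) and Tet3 (15.3 CPM in 1 embryo).

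The male to female difference changed between fetal and adult liver for 4 members by the interaction test: Dnmt3b (-0.56), Tet1 (-1.19), Tet2 (-0.92) and Tet3 (-0.57). Only the Tet2 value was called with the share of reads outside genes as a covariate. Tet1 had at most 5 reads in an adult library and was under the count filter among adult livers alone.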

How the results depend on the processing

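For members called under at least 1 setting of a comparison there were 373 alternative values, of which 340 kept their direction and side of the threshold, 18 lost the call, 7 gained it and 8 changed sign. For members never called in a comparison, 22 of 203 alternative values changed sign. Unless stated the cause was not tested. Between male and female embryos 24 genes were called, against 64 with DESeq2 and 15 without embryos 1 and 3. Between ES lines 1205 genes and 2 members were called, against 519 and 1 with the share of reads outside genes as a covariate, and 0 to 3070 genes and 0 to 4 members when 1 line was left out. Between fetal livers 600 genes and 1 member were called, against 4807 and 3 without a fold threshold, 1057 genes without an expression filter, and 9 genes and 0 members with the covariate. Between adult livers 984 genes and 2 members were called, against 3400 genes without a fold threshold and 1518 genes and 1 member without a filter. The liver interaction had 1787 genes and 4 members, against 4384 genes without a fold threshold and 740 genes and 1 member with the covariate. The interaction over embryos and ES lines had 4 genes, against 16 with DESeq2.

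The 8 changes of sign were found between the ES lines for Dnmt3a (-0.34, 0.78 with the covariate, -1.23 to 0.20 without 1 line), Dnmt3b (0.28, -0.26 to 0.68 without 1 line), Tet2 (0.39, -0.63 with the covariate, -0.10 to 0.75 without 1 line) and Dppa3 (0.95, -0.016 to 1.52 without 1 line), and in fetal liver with the covariate for Tet1 (-0.37) and Tet2 (-0.10). Of the values without 1 line, those of Dnmt3a (-1.23) and Tet2 (0.75) without line 1 and of Dnmt3b (0.68) and Dppa3 (1.52) without line 2 were called.

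Fetal and adult livers share sample numbers. Same-numbered samples did not deviate together (24 pairs, r from -0.118 to 0.0728, 1 of them best with its own number), so the number is not a pairing. With the number as a replicate block 9417 genes were called in adult against fetal liver, against 8622, and 7 members in both. Depth limits Dnmt3l, Dppa3 and Tdg in livers, and Uhrf1 and Tet1 in adult livers.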
